A study of Mus musculus with 6 samples.

Results

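Histone acetylation is set by opposing enzyme families, and 31 genes encoding them were followed here: 13 acetyltransferases and acetyltransferase coactivators, 11 zinc-dependent deacetylases (Hdac1 to Hdac11) and the 7 sirtuins. They were chosen by gene name, and all 31 were present among the 55802 genes of the deposited tables. Acetyltransferases move an acetyl group from acetyl-CoA to lysines of histones and other proteins, which loosens nucleosomes and creates docking sites for bromodomain proteins. Deacetylases remove it again, the Hdac enzymes with a zinc ion and the sirtuins at the expense of NAD. In the neural lineage Hdac1 and Hdac2 act within corepressor complexes, while the large coactivators p300 and CBP serve enhancers.

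The RNA came from primary neural stem cells that were isolated from the subventricular zone, the niche beside the lateral ventricles, of adult C57BL/6 mice and grown in a B27-supplemented medium. The first group (SETD4 OE, n = 3) carried an adenovirus encoding SETD4 and green fluorescent protein, ADV-SETD4-GFP, labelled as a SETD4 overexpression genotype. The second group (control, n = 3) was wild type and carried ADV-GFP, which encodes the fluorescent protein alone, so that both groups held virus and were infected for 24 h. SETD4 carries a SET domain, the fold of many lysine methyltransferases. The promoter of the viral transgene is not given in the sources used here, and no label says whether replicates came from separate animals or cultures, so p-values measure the spread between these libraries, which may be technical.

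The libraries held 14924273 to 16045138 reads in SETD4 OE and 16007182 to 18078717 in control. The library sizes implied by the authors' values were not these totals. Totals differed from them by -5.04%, -3.97% and -3.69% in SETD4 OE, and by 0.634%, 2.75% and 0.639% in control. This offset differs between the groups and lowers SETD4 OE values relative to control. Setd4 measured 296, 346 and 333 FPKM (fragments per kilobase of gene, scaled to library size) in SETD4 OE, against 0.952, 0.972 and 1.53 FPKM in control, reads of the virus included. All 9 markers of neural stem cells and astroglia exceeded 1 FPKM on average over the 6 libraries, and none of the 9 microglial markers did. The microglial list summed to 1.975 to 2.407 FPKM in SETD4 OE and 1.057 to 1.322 FPKM in control. Of the astroglial list 6 genes were higher and 3, Fabp7, Vim and Nes, lower. Its sum of 3356 to 3523 FPKM in SETD4 OE, against 2733 to 2953 FPKM in control, was carried by Gfap, at 1388 FPKM in SETD4 OE and 321 FPKM in control. Sox2 averaged 190 FPKM in SETD4 OE and 162 FPKM in control, and Nes, which encodes nestin, 42.7 FPKM in SETD4 OE and 117 FPKM in control. Ependymal markers summed to 49.0 to 65.8 FPKM in SETD4 OE against 19.6 to 24.9 FPKM in control, with 4 of 4 tested higher, or 3 of 4 without control replicate 1. Of the mural and fibroblast markers 3 of 4 tested were higher and Acta2 was lower (11.6 FPKM in SETD4 OE, 30.9 FPKM in control), and the list summed to 21.8 to 25.6 FPKM in SETD4 OE and 32.6 to 37.3 FPKM in control, a sum set mainly by Acta2. The endothelial list summed to 1.37 to 1.57 FPKM in SETD4 OE and 3.99 to 4.36 FPKM in control. Flt1, the 1 of 7 endothelial genes tested, held most of that difference (0.618 FPKM in SETD4 OE, 3.43 FPKM in control), the others averaged from 0 (Cldn5) to 0.336 FPKM in either group, and Tek, Kdr and Cdh5 had higher means in SETD4 OE. Oligodendrocyte lineage markers had 6 of 7 tested genes higher, while their sum was 166 to 182 FPKM in SETD4 OE against 320 to 377 FPKM in control with Olig2 as the 1 lower gene (128 FPKM in SETD4 OE, 339 FPKM in control). The 12 proliferation markers all fell and summed to 116 FPKM in each SETD4 OE library, against 396 to 412 FPKM in control. Beside these marker counts, 26.0% of all tested genes were higher and 33.9% lower. In such bulk RNA, fewer cells of a type and less RNA per cell cannot be told apart, and the part of these markers in the changes below was not tested. Mitochondrially encoded genes took 3.66%, 3.73% and 3.52% of reads in SETD4 OE, against 3.78%, 2.45% and 2.45% in control, so that control replicate 1 was like the SETD4 OE libraries and the other controls were lower. The part of this share in the changes was not tested.

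All 31 genes passed the filter of a mean of 1 FPKM over the 6 libraries, and each library held between 83 and 4100 reads of each. Of them 18 (58.1%) differed between the groups at an adjusted p under 0.05 (limma, Benjamini-Hochberg over 12994 genes), against 60.0% of all tested genes, so the enzymes changed about as often as genes in general. In SETD4 OE 12 members were higher (38.7%), where 26.0% of all tested genes were, and 6 were lower (19.4%), where 33.9% were. The members' log2 fold changes had a median of 0.08, against -0.06 for all tested genes. The 3 values of SETD4 OE lay clear of the 3 control values for 19 members (61.3%), against 66.0% of all tested genes. With the authors' scaling the 31 genes summed to 369 to 378 FPKM in SETD4 OE and 374 to 388 FPKM in control, and these ranges overlapped. This sum was not taken with other scalings. Without control replicate 1, 9 members were higher and 7 lower (29.0% and 22.6%), beside 25.9% and 34.5% of all tested genes. With libraries scaled to equal sums of reads, 14 members were higher and 5 lower (45.2% and 16.1%), beside 29.9% and 29.0% of all tested genes. With libraries scaled to the upper quartile of the tested genes, which moved the median of all genes by 0.13 on the log2 scale, 17 members were higher and 5 lower (54.8% and 16.1%, beside 33.9% and 25.1% of all tested genes), and the share of changed genes that were higher was 57.5%, against 43.4% with the authors' scaling.

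**Figure D1:**
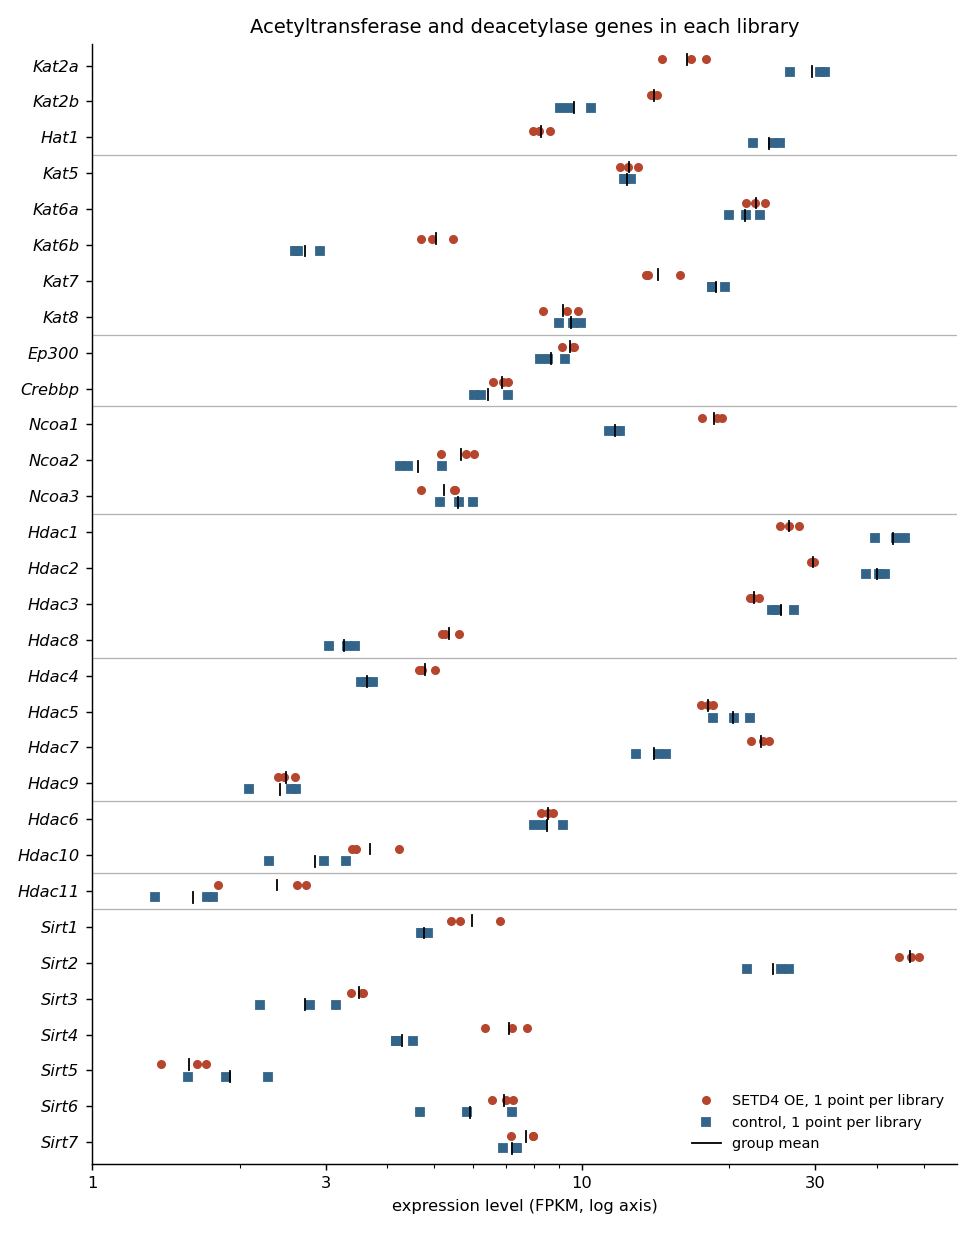
Expression level of each of the 31 genes in each library (FPKM, log axis), with SETD4 OE as circles above control as squares and group means as vertical ticks; lines separate enzyme families. Sirt2 has rank 1 in SETD4 OE and rank 5 in control, while Hdac1 has rank 3 in SETD4 OE and rank 1 in control.

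The promoters of the 2 members with the largest falls and the 2 with the largest rises among members with a single listed start are shown because members of each pair moved together. Each is the 250 bases before the start, 5′ to 3′ on the gene's strand, from RefSeq on GRCm38.p6, an older build than the mm39 of the tables.
Hat1, chr2:71389010-71389259, plus strand: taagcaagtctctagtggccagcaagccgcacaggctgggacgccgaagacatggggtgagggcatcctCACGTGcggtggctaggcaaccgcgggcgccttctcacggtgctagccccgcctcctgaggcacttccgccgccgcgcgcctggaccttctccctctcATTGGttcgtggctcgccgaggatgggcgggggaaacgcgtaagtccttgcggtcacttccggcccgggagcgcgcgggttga
Kat2a, chr11:100712468-100712717, minus strand: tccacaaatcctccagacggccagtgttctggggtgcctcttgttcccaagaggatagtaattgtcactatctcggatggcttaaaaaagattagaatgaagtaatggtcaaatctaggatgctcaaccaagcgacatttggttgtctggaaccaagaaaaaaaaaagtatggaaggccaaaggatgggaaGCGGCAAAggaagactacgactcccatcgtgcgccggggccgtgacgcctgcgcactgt
Sirt2, chr7:28766502-28766751, plus strand: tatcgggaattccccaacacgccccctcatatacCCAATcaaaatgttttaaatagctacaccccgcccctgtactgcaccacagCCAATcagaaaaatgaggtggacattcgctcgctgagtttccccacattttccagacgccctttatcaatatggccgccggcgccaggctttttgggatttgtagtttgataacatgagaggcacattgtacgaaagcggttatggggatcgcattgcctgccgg
Ncoa1, chr12:4477183-4477432, minus strand: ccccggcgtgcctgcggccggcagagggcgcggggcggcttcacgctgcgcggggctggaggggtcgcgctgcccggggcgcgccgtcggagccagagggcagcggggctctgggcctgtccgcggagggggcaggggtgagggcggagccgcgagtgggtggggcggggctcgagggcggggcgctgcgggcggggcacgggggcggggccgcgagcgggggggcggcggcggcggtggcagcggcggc
Capitals mark 4 motifs searched on both strands, none of which overlap in these windows: E2F (TTTCCCGC, TTTCGCGC, TTTGCCGC or TTTGGCGC), the CCAAT box (CCAAT), the cell cycle homology region (TTTGAA) and the E-box (CACGTG). An E2F match occurred in 1.86% of 32841 promoter windows, a CCAAT box in 33.9%, TTTGAA in 16.0% and an E-box in 6.02%. Hat1 held an E-box and a CCAAT box, Kat2a an E2F match, Sirt2 a pair of CCAAT boxes, and Ncoa1 none of the 4. Windows of 25 members were used. Left out were Hdac1 and Hdac3, which fell, Ncoa2, which rose, and Hdac10, Ncoa3 and Kat6a, which were not called. Of the 25 members used, an E2F match was found for 2, Kat2a and Sirt4, of which the first fell and the second rose. A CCAAT box was found for 2 of the 4 used members that fell, 6 of 11 that rose and 5 of 10 not called. These counts are per gene over all its windows, while the shares above are per window. These matches describe letters only.

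The GNAT acetyltransferases showed the widest split. Hat1 (chromosome 2, 71219302 to 71271966, mm39), which acetylates newly made histone H4 before it is placed on DNA, measured 8.63, 7.96 and 8.17 FPKM in SETD4 OE, against 24.6, 22.4 and 25.4 FPKM in control. All SETD4 OE values lay far below the lowest control, and the mean was 2.92-fold lower in SETD4 OE (log2 fold change -1.44, SE 0.06, adjusted p = 5.45e-06, limma). Of all tested genes 97.0% changed by less. Kat2a (chromosome 11, 100595572 to 100603291), the GCN5 catalytic subunit of the SAGA and ATAC coactivator complexes, measured 16.7, 14.6 and 17.9 FPKM in SETD4 OE, against 26.7, 30.7 and 31.3 FPKM in control. It was 1.80-fold lower (log2 fold change -0.81, SE 0.09, adjusted p = 2.88e-04, limma), with no overlap between the groups. Its paralog Kat2b, or PCAF, can take the same place in those complexes and went the other way, with 14.3, 13.9 and 14.0 FPKM in SETD4 OE against 10.4, 9.40 and 9.02 FPKM in control (log2 fold change 0.50, SE 0.06, adjusted p = 4.61e-04, limma). Kat2a thus stood at 1.05 to 1.28 times the level of Kat2b in SETD4 OE, against 2.55 to 3.47 times in control. This ratio is taken within a library and does not depend on how libraries are scaled.

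Among the MYST acetyltransferases, 1 of 5 rose and 1 fell, beside 26.0% and 33.9% of all tested genes. Kat6b, or MORF, which acetylates histone H3 and is needed in forebrain development, measured 4.69, 5.45 and 4.95 FPKM in SETD4 OE, against 2.91, 2.60 and 2.63 FPKM in control. It was 1.85-fold higher (log2 fold change 0.70, SE 0.07, adjusted p = 2.05e-04, limma), and the groups did not overlap. Kat6a, or MOZ, the closest relative of Kat6b and the more abundant, measured 22.6, 23.7 and 21.7 FPKM in SETD4 OE and 23.1, 19.98 and 21.6 FPKM in control, a log2 difference of 0.07 with a 95% interval of -0.09 to 0.23. Kat7, or HBO1, whose complex acetylates histones at replication origins, was lower at 13.6, 15.8 and 13.5 FPKM in SETD4 OE, against 19.6, 18.4 and 18.4 FPKM in control (log2 fold change -0.37, SE 0.07, adjusted p = 0.00353, limma). Kat5 (TIP60) and Kat8 (MOF), the H4 acetyltransferases of the NuA4 and of the MSL and NSL complexes, did not pass. Kat5 averaged 12.5 ± 0.534 FPKM in SETD4 OE and 12.3 ± 0.236 FPKM in control, and Kat8 9.15 ± 0.754 and 9.52 ± 0.504 FPKM (SD, n = 3 each). Kat5 shares 426 exonic bases with Rnaseh2c in GRCm38, and the strand setting of the counts was not given, so its level may hold reads of that neighbour.

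The p300 and CBP coactivators, which acetylate H3 at enhancers, did not pass the test. Ep300 measured 9.63, 9.60 and 9.12 FPKM in SETD4 OE and 9.25, 8.21 and 8.52 FPKM in control, and Crebbp 6.91, 7.05 and 6.59 FPKM in SETD4 OE and 7.05, 6.03 and 6.22 FPKM in control. The 95% intervals of the log2 change were -0.03 to 0.26 for Ep300 and -0.08 to 0.24 for Crebbp, so a change as large as that of Kat2b lies outside both. Ep300 passed with 3 of the scalings, with a smallest adjusted p of 0.0242 (limma). Of the p160 coactivators, which bridge nuclear receptors to p300, Ncoa1 rose to 18.9, 19.4 and 17.6 FPKM in SETD4 OE, against 11.8, 11.4 and 11.9 FPKM in control (log2 fold change 0.63, SE 0.06, adjusted p = 9.43e-05, limma). Ncoa2 was also called higher, at 6.02, 5.79 and 5.17 FPKM in SETD4 OE and 5.18, 4.26 and 4.42 FPKM in control, but these values overlap. Its adjusted p of 0.041 (limma) became 0.119 without control replicate 2 or control replicate 3, 0.129 without SETD4 OE replicate 1 and 0.102 without SETD4 OE replicate 2. Ncoa3 did not pass, with a mean of 5.23 ± 0.458 FPKM in SETD4 OE and 5.58 ± 0.425 FPKM in control (SD, n = 3 each). It shares 154 exonic bases in GRCm38 with Sulf2, which was lower at 40.6 FPKM in SETD4 OE and 57.8 FPKM in control (log2 fold change -0.50).

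**Figure D2:**
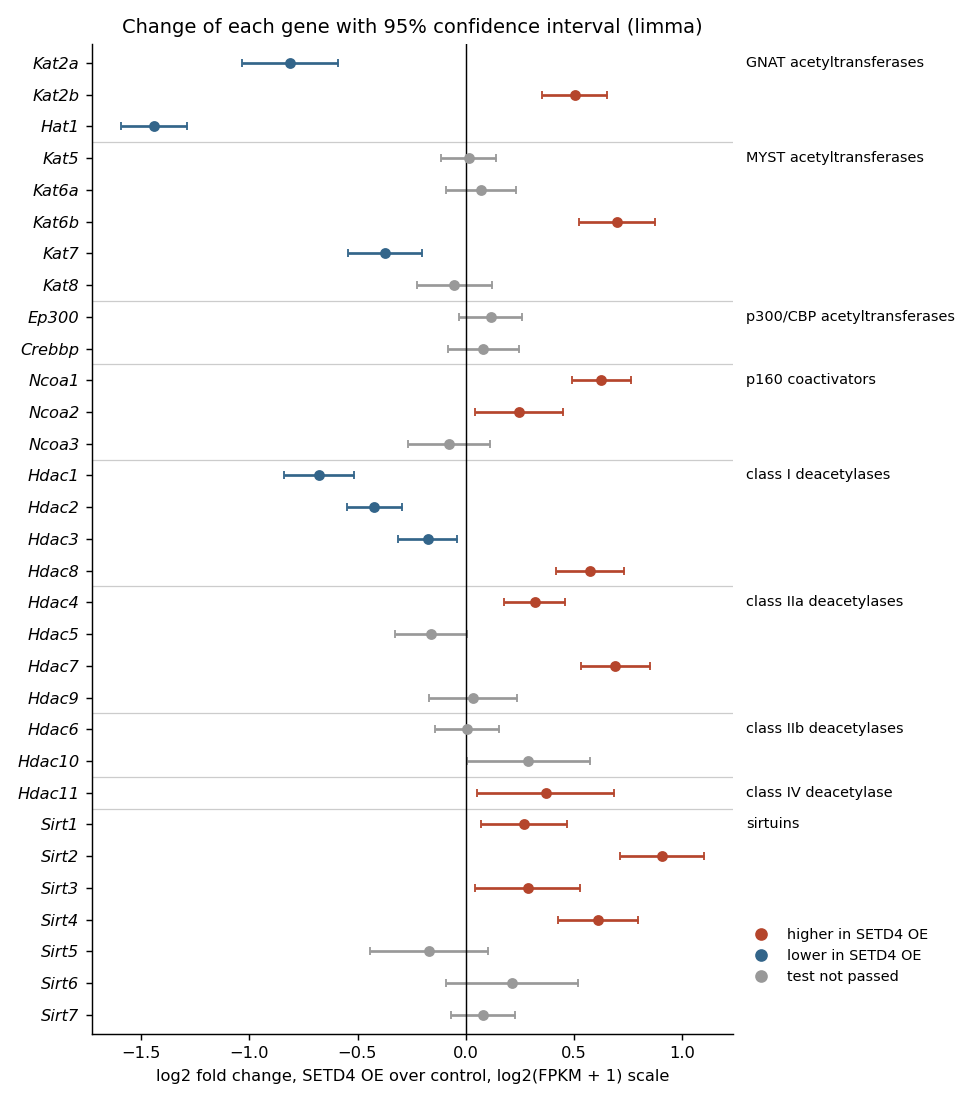
Log2 fold change of each gene, SETD4 OE over control on the log2(FPKM + 1) scale, with its 95% confidence interval (limma, n = 3 per group), grouped by enzyme family. Hat1 at -1.44 and Sirt2 at 0.91 mark the ends of the range.

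Class I deacetylases, the catalytic cores of nuclear corepressor complexes, included Hdac1 and Hdac2, the Hdac genes of highest level in both groups. Of the class 3 of 4 were lower in SETD4 OE, beside 33.9% of all tested genes. With equal sums, quantile normalization or the upper quartile of tested genes 2 of 4 were lower, beside 29.0%, 29.0% and 25.1%. Hdac1 (chromosome 4, 129409897 to 129436506) measured 26.4, 25.4 and 27.7 FPKM in SETD4 OE, against 39.8, 45.8 and 43.9 FPKM in control. It was 1.63-fold lower (log2 fold change -0.68, SE 0.07, adjusted p = 1.53e-04, limma) and had rank 3 among the 31 genes in SETD4 OE, against rank 1 in control. A processed copy of the gene, Hdac1-ps, was listed at 3.85 ± 0.292 FPKM in SETD4 OE and 6.80 ± 1.52 FPKM in control, so some Hdac1 reads may have been placed there, and the copy was lower too (log2 fold change -0.67, adjusted p = 0.0046, limma). Hdac2 (chromosome 10, 36850540 to 36877885), which pairs with Hdac1 in the SIN3, NuRD and CoREST complexes, measured 29.3, 29.9 and 29.6 FPKM in SETD4 OE, against 41.6, 38.1 and 40.4 FPKM in control. It was 1.35-fold lower (log2 fold change -0.42, SE 0.05, adjusted p = 4.70e-04, limma), again with no overlap. Both genes together made up 37.6% to 38.5% of the summed level of the 11 Hdac genes in SETD4 OE, against 49.3% to 50.8% in control.

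Hdac3, the deacetylase of the NCoR and SMRT corepressors, measured 23.0, 22.0 and 22.4 FPKM in SETD4 OE, against 25.04, 27.2 and 24.4 FPKM in control. The groups do not overlap, but the log2 change of -0.18 (adjusted p = 0.0336, limma) is small. It was 0.0033 with quantile normalization, and the call was lost without control replicate 2 (adjusted p = 0.0978) or without SETD4 OE replicate 1, 2 or 3 (0.0621, 0.0903 and 0.0852, limma). The call was also lost with equal sums, with the upper quartile of tested genes and with the replicate number as a block (adjusted p = 0.0943, limma). Hdac8, the class I enzyme that deacetylates cohesin and works outside those complexes, was the member of the class that rose, at 5.17, 5.25 and 5.61 FPKM in SETD4 OE against 3.44, 3.04 and 3.31 FPKM in control. It was 1.64-fold higher (log2 fold change 0.57, SE 0.07, adjusted p = 2.97e-04, limma).

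Class IIa deacetylases shuttle between nucleus and cytoplasm and repress MEF2 factors, and 2 of 4 rose, beside 26.0% of all tested genes. Hdac7 (chromosome 15, 97690545 to 97742383) measured 24.1, 22.1 and 23.4 FPKM in SETD4 OE, against 12.9, 14.9 and 14.3 FPKM in control. It was 1.66-fold higher (log2 fold change 0.69, SE 0.07, adjusted p = 1.31e-04, limma) and had rank 4 among the 31 genes, against rank 10 in control. Its gene model overlaps Slc48a1, which rose by a like amount (log2 fold change 0.70), though the 2 share 29 exonic bases in GRCm38. Hdac4 was higher by less, at 4.64, 5.01 and 4.71 FPKM in SETD4 OE against 3.53, 3.65 and 3.75 FPKM in control (log2 fold change 0.32, SE 0.06, adjusted p = 0.00317, limma). Hdac5 was not called at 18.5, 17.5 and 18.1 FPKM in SETD4 OE and 18.5, 22.0 and 20.4 FPKM in control (adjusted p = 0.0893, limma). It passed as lower in 2 of 16 alternative runs, among them that without control replicate 1 (log2 fold change -0.22, adjusted p = 0.019, limma). With quantile normalization its log2 change was 0.0025. Hdac9 averaged 2.49 ± 0.105 FPKM in SETD4 OE and 2.41 ± 0.280 FPKM in control and did not pass. The class as a whole provided 32.8% to 33.4% of the summed Hdac level in SETD4 OE, against 23.4% to 25.1% in control.

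The remaining Hdac genes belong to classes IIb and IV, and 1 of 3 was called, beside 60.0% of all tested genes. Hdac6, a cytoplasmic class IIb enzyme that deacetylates tubulin, measured 8.74, 8.25 and 8.54 FPKM in SETD4 OE and 9.13, 8.31 and 7.998 FPKM in control. Its log2 difference was 0.01 with a 95% interval of -0.14 to 0.16. Hdac10, a deacetylase of polyamines, was not called (3.69 ± 0.463 FPKM in SETD4 OE and 2.85 ± 0.514 FPKM in control, adjusted p = 0.0736, limma), and it passed as higher without control replicate 2 (adjusted p = 0.0437). Hdac11, the only class IV enzyme, rested on 108 to 175 reads in SETD4 OE and 83 to 116 in control. It was called higher at 2.62, 1.81 and 2.73 FPKM in SETD4 OE against 1.35, 1.71 and 1.76 FPKM in control (log2 fold change 0.37, SE 0.13, adjusted p = 0.0467 by limma). That call was lost without any 1 library other than SETD4 OE replicate 2: the adjusted p was 0.117, 0.0739 and 0.0687 without control replicates 1, 2 and 3, and 0.14 and 0.138 without SETD4 OE replicates 1 and 3.

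Of the 7 sirtuins 4 were higher and 0 lower, beside 26.0% and 33.9% of all tested genes. Without control replicate 1, 2 were higher, beside 25.9% of all tested genes. With the median of ratios 3 were higher (all genes 25.1%), with quantile normalization 3 (28.65%), and with the upper quartile of tested genes 6 (33.9%). Sirt2 (chromosome 7, 28466160 to 28488086), a mainly cytoplasmic sirtuin known in the brain from oligodendrocytes and myelin, measured 47.0, 44.5 and 48.9 FPKM in SETD4 OE, against 21.8, 26.5 and 25.5 FPKM in control. It was 1.90-fold higher (log2 fold change 0.91, SE 0.08, adjusted p = 9.44e-05 by limma), the largest rise among the 31 genes, and 88.3% of all tested genes changed by less. Of the oligodendrocyte lineage markers 6 of 7 tested were higher, beside 26.0% of all tested genes, and Olig2 was lower. Their sum was lower, at 166 to 182 FPKM in SETD4 OE against 320 to 377 FPKM in control. The part of these markers in the rise of Sirt2 was not tested. Sirt2 provided 58.2% to 59.9% of the summed sirtuin level in SETD4 OE, against 47.1% to 49.1% in control. Its model overlaps that of Nfkbib by 42 exonic bases in GRCm38, and Nfkbib did not pass (log2 fold change -0.06).

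The mitochondrial sirtuins Sirt3, Sirt4 and Sirt5 differed among themselves. Sirt4, which restrains glutamine and fatty acid use, rose to 7.71, 6.33 and 7.21 FPKM in SETD4 OE, against 4.17, 4.53 and 4.17 FPKM in control (log2 fold change 0.61, SE 0.08, adjusted p = 5.04e-04, limma). Sirt3, the main mitochondrial deacetylase, was called higher at 3.55, 3.38 and 3.58 FPKM in SETD4 OE against 2.21, 3.15 and 2.79 FPKM in control (log2 fold change 0.29, adjusted p = 0.0453 by limma). The call was lost without control replicate 1 or 3 (adjusted p = 0.0832 and 0.0841) and without SETD4 OE replicate 1, 2 or 3 (0.111, 0.0776 and 0.108, limma). Sirt3 shares 342 exonic bases with Psmd13 and 418 with Ric8a in GRCm38, both of which were lower (log2 fold changes -0.33 and -0.43). Sirt5, a desuccinylase and the lowest of the 31 genes in SETD4 OE, averaged 1.57 ± 0.169 FPKM there and 1.91 ± 0.358 FPKM in control and did not pass.

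Of the nuclear sirtuins, Sirt1 was called higher at 5.63, 6.81 and 5.42 FPKM in SETD4 OE against 4.70, 4.71 and 4.85 FPKM in control (log2 fold change 0.27, SE 0.08, adjusted p = 0.0274 by limma). The call was lost without control replicate 1, 2 or 3 (adjusted p = 0.0568, 0.0665 and 0.0616) and without SETD4 OE replicate 2 (0.0515, limma), which held the highest value. Sirt6, which acts on telomeric and glycolytic gene chromatin, averaged 6.92 ± 0.351 FPKM in SETD4 OE and 5.90 ± 1.27 FPKM in control, where its 3 values ran from 4.66 to 7.20 FPKM. It did not pass, but was called higher without control replicate 3 (adjusted p = 0.0296 by limma). The nucleolar Sirt7 averaged 7.68 ± 0.462 FPKM in SETD4 OE and 7.21 ± 0.261 FPKM in control and did not pass. It shares 124 exonic bases in GRCm38 with Mafg, which did not pass (log2 fold change -0.09). Kat5, Sirt6 and Sirt7 passed as higher with the upper quartile of tested genes, and Kat6a with quantile normalization. Hdac10 passed with the upper quartile of tested genes, with equal sums and with the replicate number as a block (adjusted p = 0.0402, limma).

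**Figure D3:**
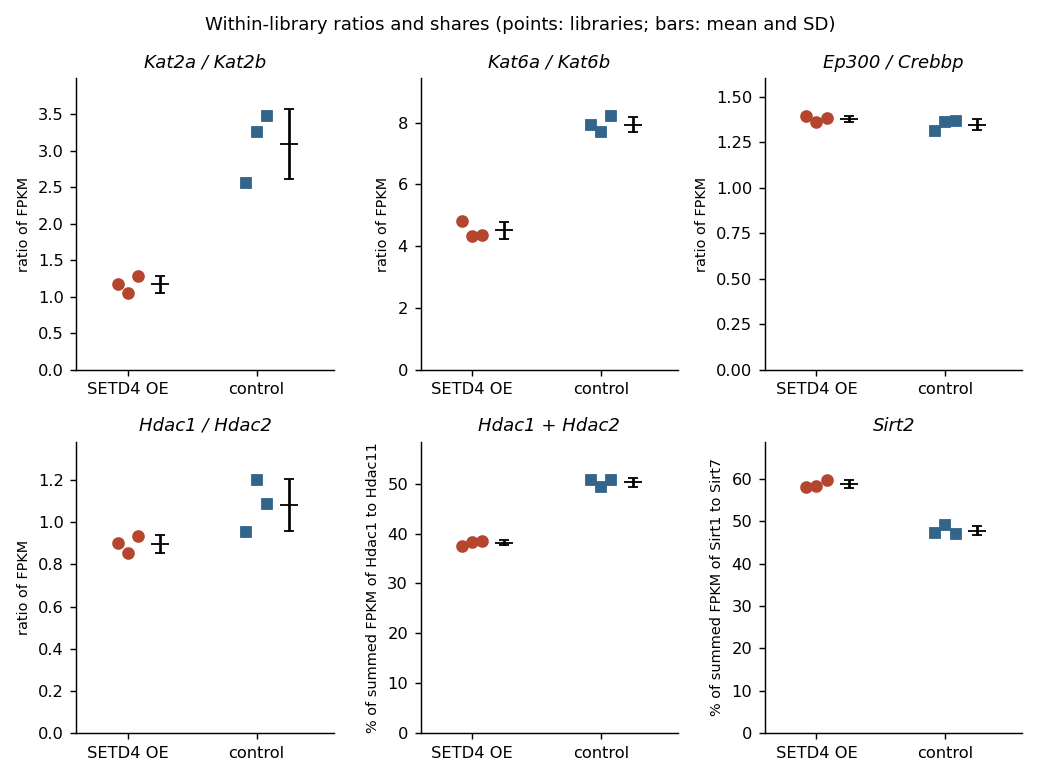
Within-library FPKM ratios of 4 paralog pairs, and the shares of Hdac1 plus Hdac2 in the summed Hdac level and of Sirt2 in the summed sirtuin level (percent), for SETD4 OE (left) and control (right); points are libraries, bars are mean and SD (n = 3 each). The Kat2a to Kat2b ratio averages 1.17 in SETD4 OE and 3.10 in control, and the Ep300 to Crebbp ratio overlaps between the groups.

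Ratios between close paralogs were compared within each library, so that the scaling of libraries cancels. The Kat2a to Kat2b ratio averaged 1.17 ± 0.115 in SETD4 OE and 3.10 ± 0.481 in control, and the Kat6a to Kat6b ratio 4.51 ± 0.269 in SETD4 OE and 7.94 ± 0.256 in control (SD, n = 3 each). The Hdac1 to Hdac2 ratio differed less, with 0.852 to 0.937 in SETD4 OE and 0.955 to 1.20 in control. The Ep300 to Crebbp ratio was 1.36 to 1.39 in SETD4 OE and 1.31 to 1.37 in control, and these ranges overlap. In an exact two-sided permutation test of the log2 ratio the first 3 pairs gave p = 0.1, the smallest value that 3 libraries against 3 can reach, and Ep300 to Crebbp gave p = 0.3. The pairs were picked after the levels were seen.

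The summed level of the 13 acetyltransferases and coactivators was 146 to 149 FPKM in SETD4 OE and 161 to 168 FPKM in control, and that of the 11 Hdac genes 144 to 149 FPKM in SETD4 OE and 160 to 170 FPKM in control. Sirtuins summed to 76.1 to 81.6 FPKM in SETD4 OE, against 46.0 to 54.1 FPKM in control. None of the 3 sums overlapped between the groups with the authors' scaling. The sums were not taken with other scalings, and the upper quartile of tested genes moved the median of all genes by 0.13 on the log2 scale. The offset of library sizes given above also lowers the SETD4 OE sums relative to control. Whether the first 2 sums stay apart without that offset, or with another scaling, was not tested. Hat1 and Kat2a, the members that fell most, provided 6.11% to 6.93% of the level of all 31 genes in SETD4 OE, against 13.7% to 14.6% in control. All 12 proliferation markers were lower in the same libraries (median log2 fold change -1.72), and their part in the falls was not tested.

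Subunits that house these enzymes were mostly lower or not called in the same limma fit. Over 11 lists of complex subunits, MEF2 factors and cofactor enzymes, 14 of 95 tested genes rose and 41 fell (14.7% and 43.2%), beside 26.0% and 33.9% of all tested genes. With equal sums of reads 19 rose and 28 fell (20% and 29.5%), beside 29.9% and 29.0% of all tested genes. With the upper quartile of tested genes 25 rose and 23 fell (26.3% and 24.2%), beside 33.9% and 25.1% of all tested genes. With that scaling 3 rose and 5 fell in NuRD, 2 rose and 2 fell in SIN3, and 4 rose and 1 fell in the CoREST and MiDAC list. In NuRD, the nucleosome remodelling deacetylase, 6 of 11 fell and 2 rose. Rbbp7, the histone chaperone that NuRD and SIN3 share with Hat1, fell to 40.4 ± 1.53 FPKM in SETD4 OE, against 73.5 ± 2.50 FPKM in control, and the remodeller Chd3 rose to 15.6 ± 1.70 FPKM, against 10.1 ± 1.37 FPKM in control. In SIN3, 5 of 11 fell and 1 rose, led by Ing1 (log2 fold change -0.35) and Arid4b (0.34). In the CoREST and MiDAC list 3 of 10 rose and 2 fell. Rcor2 rose to 13.2 ± 0.533 FPKM in SETD4 OE, against 7.48 ± 0.304 FPKM in control, while its paralog Rcor1 fell to 9.65 ± 0.339 FPKM in SETD4 OE, against 13.4 ± 0.527 FPKM in control. None of the 5 NCoR and SMRT genes was called with the authors' scaling, and 1 rose with 3 other scalings.

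On the acetyltransferase side, 8 of 17 SAGA and ATAC genes fell and 1, Supt7l, rose (log2 fold change 0.35). Beside the counts of this paragraph, 33.9% of all tested genes fell and 26.0% rose. Supt3 fell most, to 1.70 ± 0.132 FPKM in SETD4 OE, against 3.55 ± 0.395 FPKM in control. In NuA4, the complex of Kat5, 5 of 13 fell and 2 rose, with Ruvbl1, a shared ATPase, at 14.8 ± 0.0564 FPKM in SETD4 OE against 29.4 ± 6.30 FPKM in control, and Mbtd1 higher (log2 fold change 0.47). In the MOZ and HBO1 complexes 4 of 7 fell and 0 rose, and Jade2, a scaffold of Kat7, fell to 0.819 ± 0.180 FPKM in SETD4 OE, against 2.87 ± 0.292 FPKM in control. In the MSL and NSL complexes of Kat8 5 of 9 fell, led by Hcfc1 (log2 fold change -0.47), and 1, Kansl1, rose (0.25). With the upper quartile of tested genes 5 fell and 3 rose in SAGA and ATAC, 3 fell and 4 rose in NuA4, 3 fell and 2 rose in MOZ and HBO1, and 1 fell and 2 rose in MSL and NSL. Of all tested genes 25.1% fell and 33.9% rose with that scaling. With equal sums of reads 1 of 9 MSL and NSL genes fell, 3 of 13 in NuA4, 7 of 17 in SAGA and ATAC and 3 of 7 in MOZ and HBO1. Of all tested genes 29.0% fell there. Mef2d was the 1 of 3 tested MEF2 genes that fell (log2 fold change -0.34).

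Cofactor genes changed in both directions. Acly, which makes acetyl-CoA from citrate in cytosol and nucleus, fell to 39.7 ± 1.06 FPKM in SETD4 OE, against 62.0 ± 4.24 FPKM in control (log2 fold change -0.63, SD, n = 3 each). Acss1, which makes acetyl-CoA from acetate in mitochondria, rose to 53.4, 52.8 and 52.2 FPKM in SETD4 OE, against 13.6, 13.2 and 13.5 FPKM in control (log2 fold change 1.90, the largest among these lists). Of the NAD salvage genes that supply sirtuins 2 of 5 rose and 3 fell, beside 26.0% and 33.9% of all tested genes. With the upper quartile of tested genes 2 rose and 1 fell, beside 33.9% and 25.1%. Naprt rose to 9.65 ± 1.37 FPKM in SETD4 OE, against 5.62 ± 0.810 FPKM in control, and Nmnat2 fell to 8.75 ± 0.984 FPKM in SETD4 OE, against 19.0 ± 0.645 FPKM in control.

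**Figure D4:**
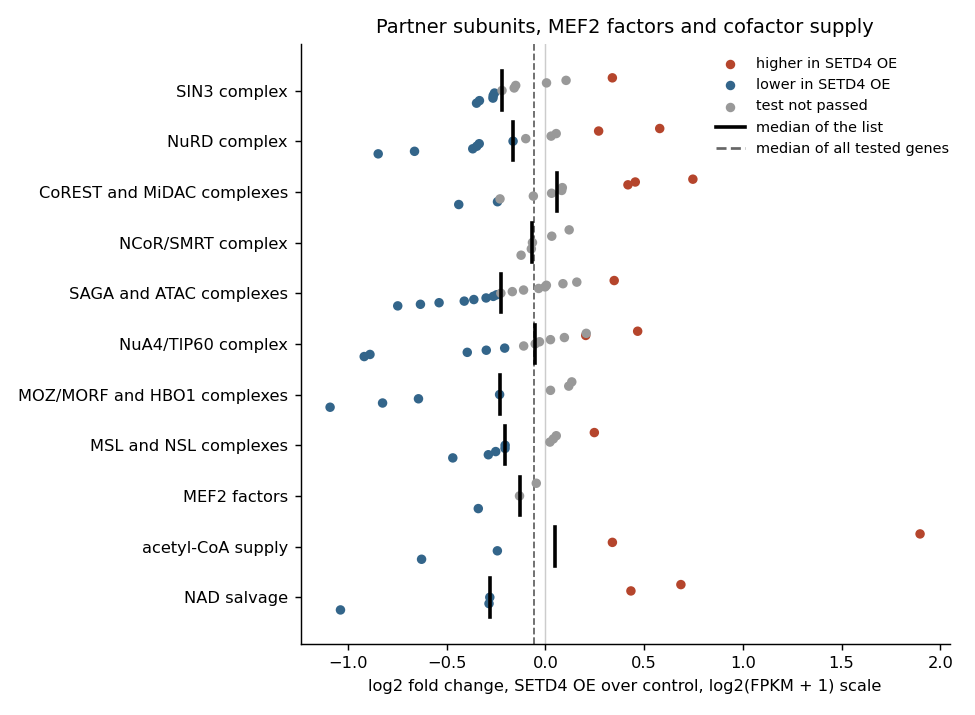
Log2 fold change (SETD4 OE over control, log2(FPKM + 1) scale) of every tested gene in 11 lists of complex subunits, MEF2 factors and cofactor enzymes; black bars are list medians and the dashed line is the median of all tested genes at -0.06. Acss1 at 1.90 stands farthest to the right and Jade2 at -1.09 farthest to the left.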

How the data were processed

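Total RNA was sequenced in 6 libraries. The submitters' processing notes name HISAT2 2.0.5 and mm39. How reads were counted, with which annotation and strand setting, is not given in the sources used here. FPKM values and gene lengths were deposited by the authors, 1 column per library, per the file headers. FPKM times length was a whole multiple of the worth of 1 read for 100% of values above 0 (tolerance 0.05 reads), which gave the reads per gene quoted.

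The scale was log2(FPKM + 1). The 12994 of 55802 genes averaging 1 FPKM or more were kept, and SETD4 OE was compared with control by limma 3.58.1 (R 4.3.3) with a mean-variance trend, two-sided, no replicate block, and Benjamini-Hochberg adjustment over all tested genes at 0.05. This scale understates the change of low genes. Folds of means are ratios of mean FPKM. Levels are per deposited gene length. Ranks, sums and shares over genes rest on that length and on the counting, which is not given, and bases shared with neighbours may affect them.

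Members and lists were chosen with earlier results of these data known. All 31 members are described, and from each partner list the called gene with the largest change in each direction, besides a few picked after their values were seen. Library pairs of a group differed beyond counting noise (chi-square per degree of freedom 3.89 to 16.3 within groups, 92.8 to 121 between), so none was counted as 1 library deposited again, which does not show separate cultures. Shared exonic bases came from GENCODE M21 (GRCm38), matched by gene identifier, and promoters from RefSeq (GRCm38.p6). One planned partner list is not reported here. The fit was also run on simulated reads, and no conclusion is drawn from that run. Figures were drawn with matplotlib 3.10.9.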

Additional observations from a re-analysis of the deposited data

How the results depend on the processing

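Of the 18 members called, 13 kept their direction and stayed past the threshold under all of the 16 alternatives in which they were tested (Kat6b, Hdac8 and Hdac4 were not tested at 5 FPKM), and Ncoa2, Hdac3, Hdac11, Sirt1 and Sirt3 did not. Besides the losses given above, Hdac11, Sirt1 and Sirt3 were lost with the replicate number as a block (adjusted p = 0.0725, 0.0532 and 0.0757, limma). Without the filter of 1 FPKM Ncoa2, Hdac11, Sirt1 and Sirt3 were lost (0.0953, 0.125, 0.0672 and 0.114, limma). With a minimum mean of 5 FPKM 23 members were tested and 7 were higher, beside 23.35% of all genes tested there. Leaving out 1 library gave 6637 to 7874 changed genes, 9 to 10 members higher and 5 to 7 lower. Of all tested genes 21.96% to 25.86% were higher and 28.97% to 34.54% lower in these runs. Besides Hdac3 (0.0033 with quantile normalization), signs turned only for members that had not passed, all close to 0. With quantile normalization Kat8 was at 0.0312, Hdac5 at 0.0025 and Hdac9 at -0.0244; with equal sums Kat8 at 0.0208; with the median of ratios Kat5 at -0.0052 and Hdac6 at -0.011; with the upper quartile of tested genes Kat8 at 0.0827 and Ncoa3 at 0.0471; and with limma-voom on recovered reads Kat5 at -0.0055 and Hdac6 at -0.0116. Across left-out libraries the log2 change ran from -0.0174 to 0.0393 for Kat5, -0.0988 to 0.0072 for Kat8, -0.0306 to 0.055 for Hdac6 and -0.0364 to 0.0737 for Hdac9. The cause was not tested. Replicate numbers showed no sign of pairing (correlations of same-numbered deviations -0.066, -0.229 and 0.077). Different-numbered pairs ran from -0.247 to 0.300. With so few libraries these values cannot exclude a paired design. With the replicate number as a block 6941 genes changed, and 10 members were higher and 5 lower. Of all tested genes 23.0% were higher and 30.4% lower with that block. The limma-voom fit and the upper quartile of tested genes were chosen after seeing the data. The planned edgeR, DESeq2 and TMM-based fits were not run, since the deposited unit was FPKM. Depth limits Hdac11, Sirt5 and Hdac10, at 83 to 222 reads per library.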
